A study of Mus musculus with 5 samples.

Results

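Notch signalling genes were followed in cultured pro-B cells (B-cell precursors) of mouse fetal liver after deletion of Ebf1 (early B-cell factor 1), a transcription factor of the B lineage. The genes were the 4 Notch receptors (Notch1, Notch2, Notch3 and Notch4), the DNA-binding partner Rbpj, the coactivator Maml1, and the target genes Dtx1, Hes1, Hey1 and Nrarp. They were chosen by name, as all array features whose annotated gene symbol is one of these 10. This gave 22 of 45018 features: 11 for Notch1, 3 for Notch2 and 1 for each other gene. All 10 genes passed the filter on dim signals and were among the 13419 genes tested, of 19087 named genes.

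RNA of 5 cultures was hybridised to 1-colour (Cy3) arrays. In 3 of them both Ebf1 alleles were floxed (Ebf fl/fl; deleted 4, 5 and 7, by the last number of their titles). In the other 2, the controls, a single allele was floxed (Ebf+/fl; control 3 and 6), so the controls had also been through the deletion of that allele. All cultures began as total liver cells of embryos at 16.5 days post coitum and were grown on OP-9 stromal cells with interleukin-7. All were treated for 24 hours with 4-hydroxytamoxifen, the ligand that switches on the ER-Cre recombinase they carry, and were grown for 4 more days. The labels do not say which promoter drives the Cre fusion or whether cultures of a group came from separate embryos, so p-values measure the spread between these samples only. By the sex-linked genes given below, control 3 and control 6 were not from the same embryo. Nor was deleted 7 from the embryo of deleted 4 or 5. Whether deleted 4 and 5 came from separate embryos was not determined. The first title number was 93 in all deleted samples and 111 in both controls, and what it stands for cannot be told apart from the genotype.

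Levels below are on a log2 scale on which 0 is the 75th percentile of that array's intensities. A feature at or below the array's 40th percentile (between -5.54 and -5.34 on this scale) was taken as not above the limit of measurement, since no detection flags were used here. Arrays had summed intensities between 66780400 and 79527100. The deleted arrays correlated with each other at Pearson's r of 0.979 to 0.982 over the tested genes, the control pair at 0.979, and deleted with control arrays at 0.926 to 0.959. Xist, a marker of female cells, stood at 4.24 in deleted 7 and 4.67 in control 6. In deleted 4, deleted 5 and control 3 it stood at -6.93, -6.27 and -6.62. The Y-linked gene Eif2s3y stood at 3.13, 2.01 and 2.70 in those arrays, and at -7.03 and -7.51 in deleted 7 and control 6. Both groups thus held male and female cultures. All 10 measured B-lineage markers were above the limit in every array, and their summed level was 766 to 980 in deleted arrays against 1719 to 1859 in controls (in multiples of the 75th percentile). The B-lineage markers did not move as one: Vpreb1, Igll1, Rag1, Dntt and Cd24a were lower, Ptprc was higher (adjusted p = 0.0309), and Cd79a, Cd79b, Pax5 and Blnk did not pass (log2 fold changes 0.01, -0.04, -0.53 and -0.55). Of the 3 Ebf1 features, the one for AK036716 stood at -4.19, -5.01 and -4.02 in deleted 4, 5 and 7, against -1.47 and -1.30 in control 3 and 6. It was 8.11-fold lower (limma adjusted p = 0.00375), whereas the features for NM_007897 and AK042875 had log2 fold changes of -0.25 and 0.44 and did not pass (adjusted p = 0.317 and 0.270). Where these features lie relative to the deleted part of Ebf1 was not determined here.

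Notch receptors are surface proteins that are cut when they bind a ligand on a neighbouring cell. The freed intracellular part enters the nucleus, where it joins Rbpj and a Mastermind protein such as Maml1 on target genes. In lymphoid progenitors, Notch1 signalling favours the T lineage over the B lineage, and Notch2 signalling is needed later for marginal zone B cells. Dtx1 (Deltex 1, a ubiquitin ligase), Hes1 and Hey1 (basic helix-loop-helix repressors) and Nrarp (an ankyrin-repeat protein that feeds back on the pathway) are widely used as readouts of Notch activity.

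The promoters of Notch2 and Notch1, the receptors that passed the test, are shown with that of Lfng, a sugar transferase acting on Notch receptors that was higher in deleted cells and whose window carries the core of the Rbpj site. Each is the 250 bases before an annotated transcript start, 5′ to 3′ on the strand of the gene, from RefSeq on GRCm38.p6, and lies outside the annotated span of its gene. They lie at chr3:98013288-98013537 (plus strand) for Notch2, chr2:26503823-26504072 (minus strand) for Notch1 and chr5:140607091-140607340 (plus strand) for Lfng. Capitals mark matches, on either strand, to TGGGAA (the Rbpj core), CACNAG (the N-box of Hes factors), the motif of Ebf factors or CANNTG (the E-box).
Notch2: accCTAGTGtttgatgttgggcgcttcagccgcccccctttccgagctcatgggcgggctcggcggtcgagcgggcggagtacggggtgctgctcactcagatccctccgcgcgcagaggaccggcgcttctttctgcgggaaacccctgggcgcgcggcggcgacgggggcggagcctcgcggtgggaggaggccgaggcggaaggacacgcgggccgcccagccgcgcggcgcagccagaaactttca
Notch1: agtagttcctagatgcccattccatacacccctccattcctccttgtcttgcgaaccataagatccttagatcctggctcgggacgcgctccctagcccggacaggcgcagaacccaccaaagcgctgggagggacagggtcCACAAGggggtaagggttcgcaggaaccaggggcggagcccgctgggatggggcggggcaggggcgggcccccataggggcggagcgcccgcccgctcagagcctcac
Lfng: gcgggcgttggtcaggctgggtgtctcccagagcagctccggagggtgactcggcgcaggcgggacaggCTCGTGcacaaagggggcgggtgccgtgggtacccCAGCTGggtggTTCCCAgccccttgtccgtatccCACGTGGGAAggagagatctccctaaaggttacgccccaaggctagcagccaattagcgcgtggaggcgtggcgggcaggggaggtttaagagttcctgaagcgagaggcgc
In these windows the Notch2 and Notch1 promoters each held 1 match to the N-box, at -247 and -108 from the start, a motif that 36.7% of 32851 promoter windows of this length hold. The Lfng window held the Rbpj core at -108 and, reversed, at -135, where 21.6% of all windows hold it at least once. It also held an N-box at -181 and E-boxes at -146 and -112, the second of which overlaps the core at -108, and 66.2% of windows hold an E-box. None of these windows held the full Ebf motif searched for, which fixes a base on each side of its core and which 0.779% of windows hold. The Notch2 window does hold the letters of the core, without those flanking bases. The core alone was not searched for, so the absence applies to the full motif only. A match in letters is a description and not a binding site.

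Of the 10 genes, Notch2 was higher in deleted cells, Dtx1 and Notch1 were lower, and 7 did not pass an adjusted p of 0.05 (limma, over all tested genes). In the same fit 17.3% of all tested genes passed, 8.58% higher and 8.74% lower. A count of 3 in 10 is too close to that share to be read as particular to these genes. The median log2 fold change of the 10 was -0.78, against 0.10 over all tested genes. In 6 of the 10 the values of the groups did not overlap (5 lower and 1 higher in deleted cells), which held for 51.7% of all tested genes (21.2% lower and 30.5% higher). Each gene is given by its brightest feature unless another is named.

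**Figure D1:**
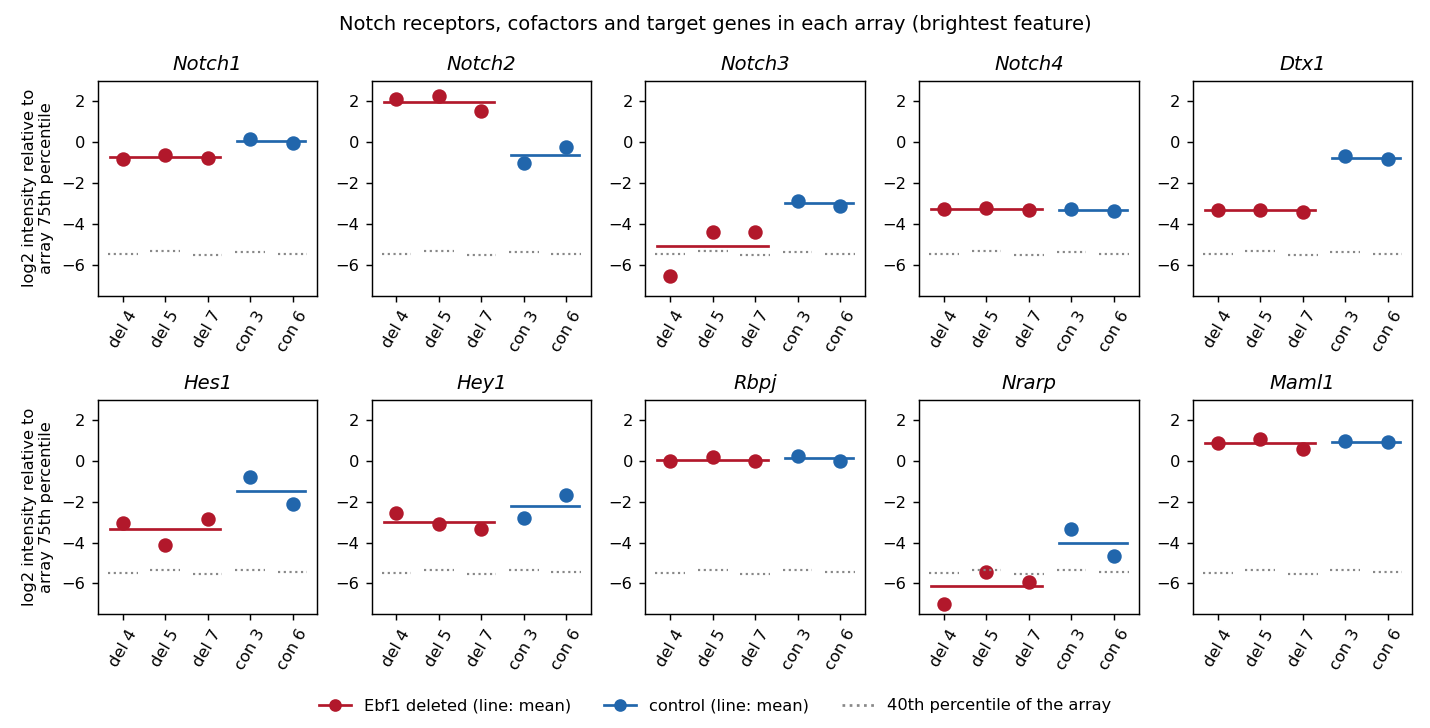
Level of each of the 10 genes in every array, as log2 intensity relative to the array's 75th percentile (vertical axis), with the 3 deleted arrays left of the 2 controls, lines at the group means and dotted marks at each array's 40th percentile. Notch2 lies at 1.53 to 2.28 in deleted arrays, above both controls, and Dtx1 at -3.39 to -3.29, below both controls, while Rbpj, Maml1 and Notch4 overlap between the groups.

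Among the receptors, Notch2 and Notch1 moved in opposite directions. Notch2 stood at 2.14, 2.28 and 1.53 in deleted 4, 5 and 7, against -1.03 and -0.23 in control 3 and 6. Every deleted array was above both controls, and the gap between the groups was wider than the spread within either. Notch2 rose 6.13-fold (log2 fold change 2.62, SE 0.32, limma adjusted p = 0.00395), ranking 145 by size among the increases of the 13419 genes. Its second feature for BC059256, which is dimmer, stood at -1.45, -1.62 and -1.70 in deleted arrays, against -5.07 and -4.31 in controls, and rose 8.55-fold (log2 fold change 3.10, SE 0.29, adjusted p = 0.00187 over all features). The feature for NM_010928 was dim, at -4.35 to -3.79 in deleted arrays and -5.33 and -4.78 in controls. It pointed the same way but did not pass (log2 fold change 0.99, SE 0.36, 95% interval 0.13 to 1.85, adjusted p = 0.124), so the size of the Notch2 increase differs between features.

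Notch1 was lower in all 3 deleted arrays. Its brightest feature stood at -0.83, -0.60 and -0.78 in deleted 4, 5 and 7, against 0.14 and -0.02 in control 3 and 6. The groups did not overlap, and Notch1 fell 1.74-fold (log2 fold change -0.80, SE 0.17, limma adjusted p = 0.0259). The array holds 10 features annotated to the same Notch1 accession, Z11886, and the annotation does not say whether they are repeated spots of 1 probe or different probes. Their standard deviation within an array lay between 0.04 and 0.12 on the log2 scale, and their means were -0.83, -0.65 and -0.89 in deleted 4, 5 and 7, against 0.04 and 0.01 in control 3 and 6. In each of the 10, every deleted array lay below both controls, with log2 fold changes between -1.002 and -0.75. Over all features, of which 12.8% passed (5.93% higher and 6.88% lower), 9 of the 10 passed, with adjusted p from 0.0111 to 0.0506 over the 10. The feature for NM_008714 was lower by a similar amount, -0.71 on the log2 scale, but missed the threshold (SE 0.19, adjusted p = 0.0530). These features share their arrays and are not replicates of the genotype. The Notch1 call did not hold when single arrays were left out: the adjusted p was 0.157 without control 3, 0.0663 without control 6, 0.0829 without deleted 4 and 0.0632 without deleted 7, with log2 fold changes between -0.88 and -0.72. It was also lost when sex was set as a block, by the high Xist of deleted 7 and control 6. There the log2 fold change was -0.82 and the limma adjusted p was 0.0559.

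**Figure D2:**
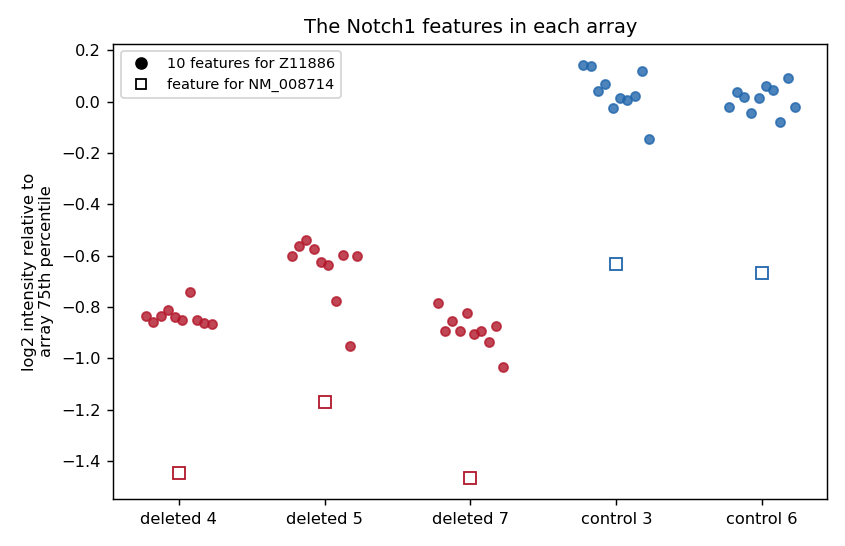
The 11 Notch1 features in each array, as log2 intensity relative to the array's 75th percentile, with the deleted arrays on the left. The 10 features for Z11886 (points) lie between -1.03 and -0.54 in deleted arrays and between -0.15 and 0.14 in controls, and the feature for NM_008714 (squares) lies lower in both groups with a similar gap.

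Notch3 and Notch4 did not pass. Notch3 stood at -6.53, -4.37 and -4.39 in deleted 4, 5 and 7, against -2.86 and -3.12 in control 3 and 6. Deleted 4 was below the limit of measurement while the other arrays were above it, and the groups did not overlap. The difference was -2.10 (log2, SE 0.70) with an adjusted p of 0.0857, and without deleted 4 it was -1.39 with an adjusted p of 0.0605. Notch4 was close to level across all 5 arrays, at -3.32 to -3.19 in deleted cells and -3.37 and -3.28 in controls, a difference of 0.07 (log2, 95% interval -0.53 to 0.67, limma adjusted p = 0.876) that was -0.06 without scaling.

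The nuclear partners Rbpj and Maml1 did not differ detectably. Rbpj, which binds DNA for all 4 receptors, stood at 0.01, 0.21 and -0.03 in deleted 4, 5 and 7, against 0.25 and -0.02 in control 3 and 6. The difference was -0.06 (log2, 95% interval -0.47 to 0.36) with an adjusted p of 0.858. Maml1 stood at 0.90, 1.09 and 0.59 in deleted arrays, against 0.98 and 0.91 in controls, and differed by -0.09 (log2, 95% interval -0.53 to 0.36) with an adjusted p of 0.790. The groups overlapped for both genes, and the sign of each small difference turned when a single array was left out (Rbpj without control 3, Maml1 without deleted 7).

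Among the targets, Dtx1 was the one that passed. Dtx1 stood at -3.32, -3.29 and -3.39 in deleted 4, 5 and 7, against -0.69 and -0.80 in control 3 and 6. The arrays of each group were nearly level, with standard deviations of 0.05 and 0.08, and the groups were far apart. Dtx1 fell 6.03-fold (log2 fold change -2.59, SE 0.21, limma adjusted p = 0.00135). Its log2 fold change stayed between -2.72 and -2.53 and past the threshold under all 15 alternatives tried. In intensity the Dtx1 feature read 38.9, 31.3 and 41.0 in deleted 4, 5 and 7, against 245.7 and 240.5 in control 3 and 6.

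Hes1, Nrarp and Hey1 had lower means in deleted cells without passing. Hes1 stood at -3.05, -4.10 and -2.84 in deleted 4, 5 and 7, against -0.81 and -2.13 in control 3 and 6. The groups did not overlap, but the controls were 1.32 apart. Its log2 fold change was -1.86 (SE 0.52, adjusted p = 0.0558), with -1.20 without control 3 (adjusted p = 0.304) and -2.52 without control 6 (adjusted p = 0.0431). Nrarp stood at -6.98, -5.46 and -5.94 in deleted arrays, all at or below the limit, against -3.35 and -4.67 in control 3 and 6, both above it. It was therefore at least 2.71-fold lower, with an adjusted p of 0.0663 in the fit. Leaving out control 3 lowered that bound to 1.72-fold, leaving out control 6 raised it to 4.28-fold, and Nrarp passed with array weights (adjusted p = 0.0407). Hey1 overlapped between the groups, at -2.56, -3.08 and -3.33 in deleted 4, 5 and 7, against -2.81 and -1.65 in control 3 and 6 (log2 fold change -0.76, 95% interval -1.75 to 0.23, adjusted p = 0.254). These 3 genes were over 2-fold apart between the 2 controls, as were 9.55% of all tested genes. Control 3 was the higher one for Hes1 and Nrarp and the lower one for Hey1.

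**Figure D3:**
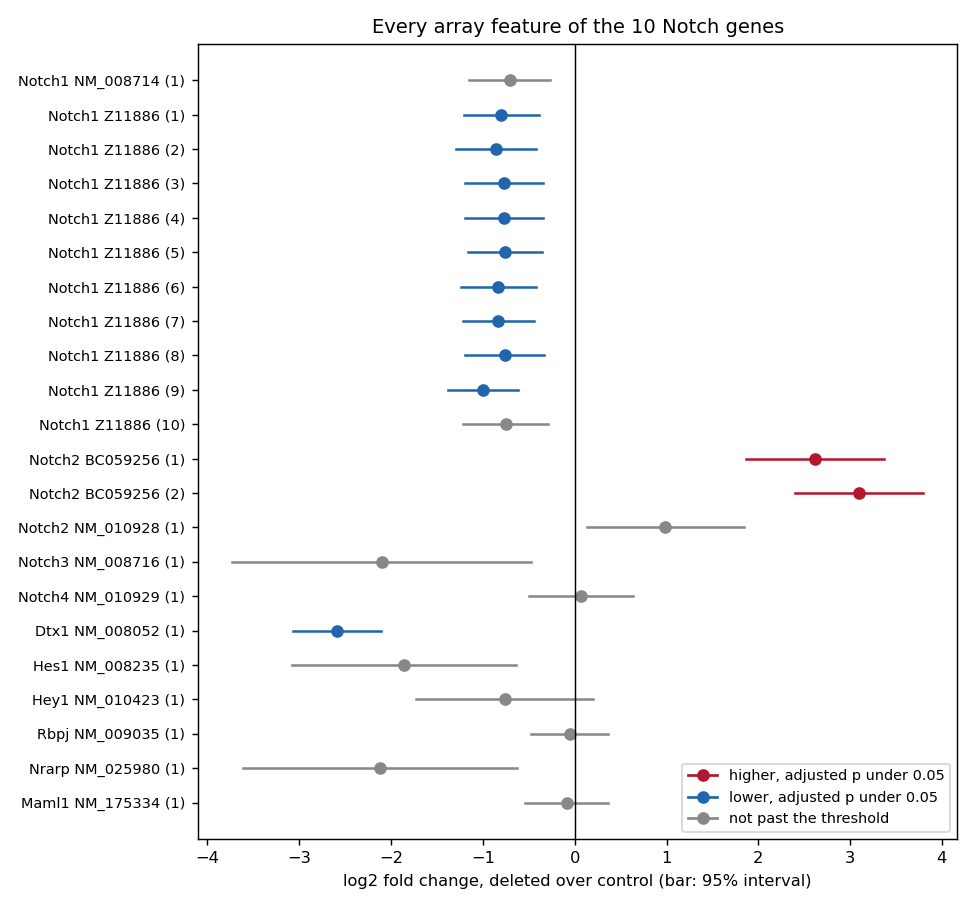
Log2 fold change, deleted over control, of each of the 22 features (points) with its 95% interval (bars), by gene, accession and order of brightness. Both BC059256 features of Notch2 are higher, at 2.62 and 3.10, the Notch1 features cluster between -1.002 and -0.71, Dtx1 lies at -2.59, and the intervals of Notch3, Hes1 and Nrarp are wide.

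The other genes of the pathway were grouped by role into lists of 70 genes, of which 65 had a named feature and 55 were tested. Of these, 4 were higher and 13 lower in deleted cells, with a median log2 fold change of -0.05, where 8.58% of all tested genes were higher and 8.74% lower. Most of the lower genes were in the list of other target genes, where 8 of 13 tested genes were lower, against 8.74% of all tested genes, and 1 was higher. The target list had a median log2 fold change of -1.09. Its genes were listed because Notch can act on them or on a close relative in some cell type, and many answer to other factors too. The lists were also chosen with earlier results of these data known. The count of lower targets above the share of all genes can therefore come from that choice.

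Hes and Hey genes encode repressors that include the best known Notch targets. Counting Hes1 and Hey1, the lists held 7 such genes, of which 3 were lower (8.74% of all tested genes were), 0 higher and 2 not past the threshold, while Hes7 and Hey2 were not above the limit in any array. Hes5 stood at 0.16, 0.67 and 0.27 in deleted 4, 5 and 7, against 1.51 and 1.84 in control 3 and 6, and fell 2.48-fold (limma adjusted p = 0.00959, log2 SE 0.21). Hes6, a relative that opposes Hes1 in neural cells, stood at 3.84 to 4.03 in deleted arrays and 4.90 and 5.02 in controls (log2 fold change -0.99, SE 0.14, adjusted p = 0.00605). Hes6 is counted here by family, and whether Notch acts on it in these cells was not tested. Heyl stood at -6.65, -5.20 and -4.54 in deleted arrays, of which deleted 4 was below the limit, against -2.19 in both controls. The fitted log2 fold change was -3.27 (SE 0.62, adjusted p = 0.0172), and its second feature, above the limit in 1 of 3 deleted arrays, was lower too, so the size is uncertain. The adjusted p was 0.0984 without control 3, 0.0685 without control 6 and 0.0555 without deleted 5. Without deleted 4 the log2 fold change of Heyl was -2.68. For all 3 called genes every deleted array was below both controls, as for 21.2% of all tested genes. In so few arrays a call mostly brings this with it, so it is no added support.

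The remaining lower targets were Il2ra, Cdkn1a, Id3, Ccnd3 and Asb2. Il2ra, the interleukin-2 receptor alpha chain and a Notch target in T-cell progenitors, stood at -2.80, -2.66 and -1.22 in deleted arrays and 0.57 and 1.49 in controls (log2 fold change -3.25, adjusted p = 0.0102). Cdkn1a, the cell-cycle inhibitor p21, had a log2 fold change of -2.57 (adjusted p = 0.00116), and Id3, an inhibitor of E proteins, one of -1.02 (adjusted p = 0.00574). The calls of Ccnd3, a G1 cyclin, and Asb2, a ubiquitin ligase subunit, were lost under several alternatives. A second, dimmer Asb2 feature overlapped between the groups (log2 fold change -0.74, limma adjusted p = 0.360 over all features). Ccnd3 had a log2 fold change of -1.11 (adjusted p = 0.0387, and 0.202 without control 3) and Asb2 one of -1.09 (adjusted p = 0.0292, and 0.175 without control 3). Without control 6 the adjusted p was 0.0930 for Ccnd3 and 0.0569 for Asb2. Ccnd3 also did not pass without deleted 4 (0.0725) or deleted 5 (0.109). Myc, a growth regulator that Notch1 activates in T-cell precursors, went the other way and rose 2.35-fold (log2 fold change 1.24, SE 0.20, adjusted p = 0.0111). Ptcra and Gata3, further T-lineage targets, were not above the limit in any array.

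**Figure D4:**
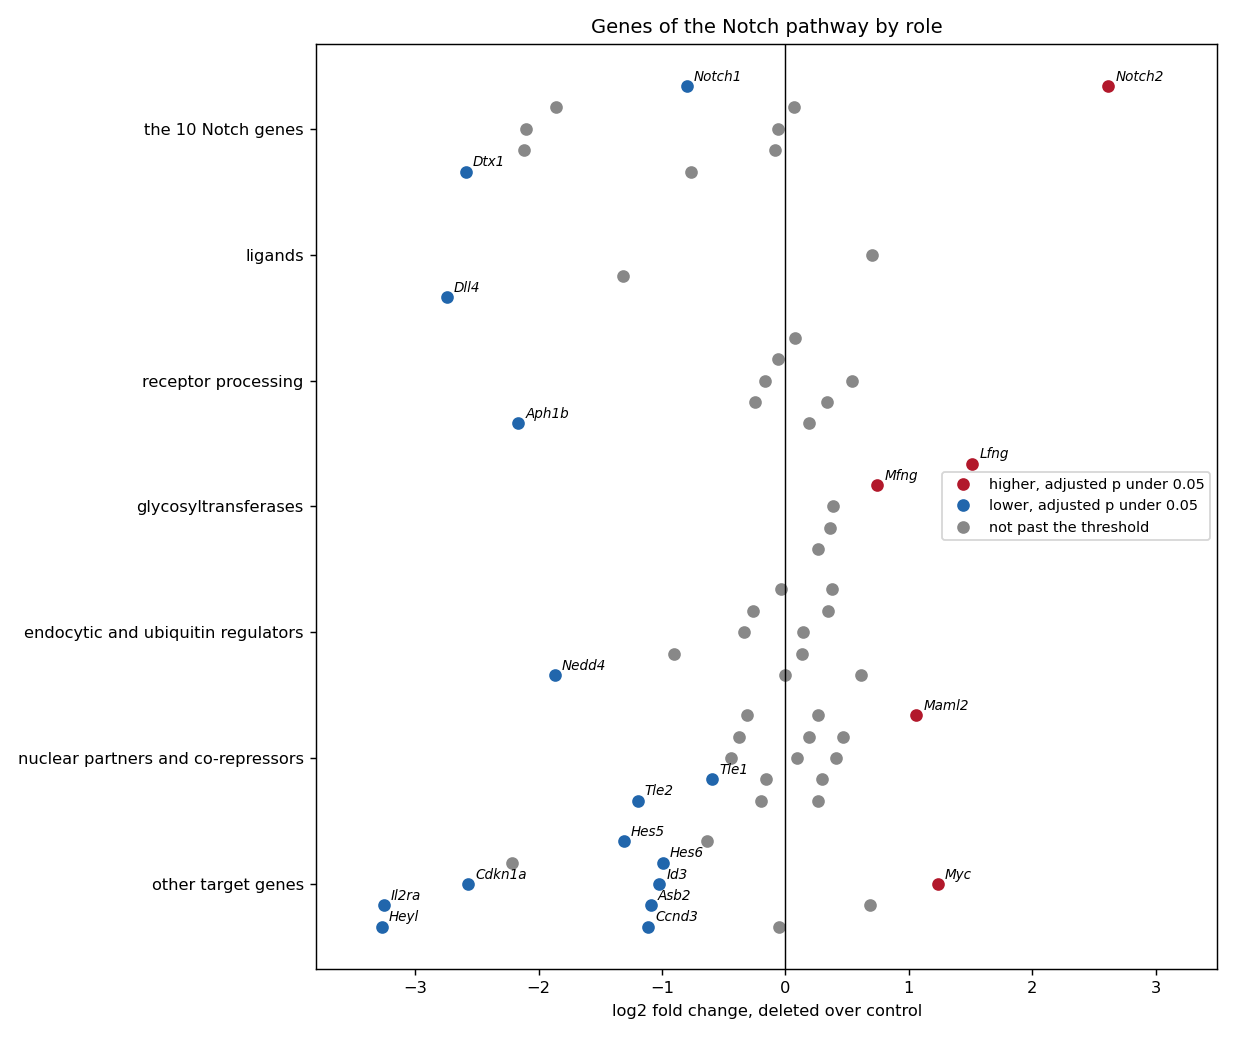
Log2 fold change, deleted over control (horizontal axis), of the 10 Notch genes and of the tested genes of 6 pathway lists, with genes past an adjusted p of 0.05 named and coloured. In the list of other target genes 8 of 13 lie to the left as lower, down to -3.27 for Heyl, while the called glycosyltransferases Lfng and Mfng lie to the right at 1.51 and 0.74. The lists were chosen with earlier results of these data known.

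Of 3 ligands tested, 1 was lower in deleted cells, where 8.74% of all tested genes were, a count too small to be read as particular to them. The lower ligand was Dll4, which engages Notch1 in the thymus. It stood at -6.07, -5.86 and -5.58 in deleted 4, 5 and 7, all below the limit, against -3.11 and -3.07 in control 3 and 6. Dll4 was at least 5.14-fold lower (adjusted p = 0.00500). Dll1 was above the limit in 2 deleted arrays and in 0 controls, and Jag1 in 1 deleted array and 2 controls. Neither passed (log2 fold changes 0.70 and -1.32, adjusted p = 0.508 and 0.301), and Dll3 and Jag2 were not above it in any array.

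Both called sugar transferases of the Fringe family, which modify Notch receptors and shift their response to ligands, were higher in deleted cells. Lfng stood at 2.18, 2.18 and 2.08 in deleted 4, 5 and 7, against 0.75 and 0.52 in control 3 and 6. It rose 2.85-fold (limma adjusted p = 0.00203, log2 SE 0.14), and its second feature gave a log2 fold change of 1.32 (adjusted p = 0.0272 over all features). Mfng stood at 4.29, 4.49 and 4.08 in deleted arrays, against 3.42 and 3.66 in controls, and rose 1.67-fold (adjusted p = 0.0315). The Mfng call was lost without control 3 (adjusted p = 0.198), control 6 (0.0683), deleted 4 (0.0784) or deleted 5 (0.0653). The third member, Rfng, did not pass (log2 fold change 0.36, adjusted p = 0.476). Of the 5 glycosyltransferase genes tested, 2 were higher and 0 lower, where 8.58% of all tested genes were higher and 8.74% lower. The list is too short for these counts to be read as particular to it.

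Among receptor processing genes 1 of 8 tested passed, close to the 17.3% of all tested genes that did. It was Aph1b, a subunit of the gamma-secretase that frees the intracellular part, and it was lower. Aph1b stood at -0.82, -1.05 and -0.60 in deleted arrays and 0.79 and 1.88 in controls (log2 fold change -2.16, SE 0.33, adjusted p = 0.00869), and its other 2 features gave -2.15 and -1.50. Aph1b and Aph1c are close relatives in the mouse, and their probes may share signal, though the Aph1c feature was not above the limit in any array. Among endocytic and ubiquitin regulators 1 of 11 passed, also not above that share. It was the ubiquitin ligase gene Nedd4, which fell 3.65-fold (adjusted p = 0.0132, and 0.0852 without control 3). The Deltex relatives Dtx2, Dtx3 and Dtx4 did not pass, with log2 fold changes of 0.35, -0.26 and -0.90. Among 15 nuclear partners and co-repressors tested 1 was higher and 2 were lower, again close to that share. Maml2, a coactivator like Maml1, was higher (log2 fold change 1.06, adjusted p = 0.0261). The Groucho co-repressor genes Tle2 and Tle1 were lower (log2 fold changes -1.20 and -0.59, adjusted p = 0.0192 and 0.0435). The 3 Tle1 features all pointed lower, but none passed over all features (limma adjusted p = 0.0538, 0.248 and 0.185). Without control 3 the adjusted p was 0.154 for Maml2, 0.129 for Tle2 and 0.200 for Tle1. Leaving out control 6, deleted 4 or deleted 5 also ended the Maml2 call (adjusted p = 0.0569, 0.0691 and 0.0744). Tle1 lost its call when any of the 5 arrays was left out.

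Markers of other cells were set beside these results, with each list summed as intensity relative to the array's 75th percentile. The stromal list ran from 10.96 to 16.7 in deleted arrays and from 9.87 to 11.5 in controls, with Dcn, Lum and Postn not above the limit in any of the 5 arrays. Most of each stromal sum was Acta2, at 3.86, 3.25 and 3.76 on the log2 scale in deleted 4, 5 and 7. In control 3 and 6 Acta2 stood at 3.03 and 3.31, and it did not pass. Of 8 stromal markers tested, Sparc was higher, 3.09-fold (adjusted p = 0.00530), and 7 did not pass. The T-cell list ran from 1.10 to 1.68 in deleted arrays and from 0.996 to 2.20 in controls, with Cd8a not above the limit in any. Of 6 T-cell markers tested, Cd3g was higher, at least 3.26-fold with both controls below the limit (adjusted p = 0.00863). Cd3d and Cd5 had higher values and Thy1 lower values in all deleted arrays without passing. Of all tested genes, 30.5% had higher and 21.2% lower values in all deleted arrays. The NK-cell list was lower in deleted arrays, at 0.215 to 0.263 against 0.925 to 1.55 in controls, with Ncr1, Gzma and Eomes not above the limit in any. Of 3 NK markers tested, Klrb1c and Nkg7 were lower (log2 fold changes -3.11 and -2.91). Prf1 had higher values in all deleted arrays without passing (0.82). The myeloid list was also lower, at 3.27 to 3.72 in deleted arrays against 5.42 to 16.0 in controls, with Elane not above the limit in any. Its highest value was in control 3, where Lyz2 stood at 3.84, against 1.98 in control 6 and 1.02 to 1.35 in deleted arrays. Of 5 myeloid markers tested, Itgam was lower (log2 fold change -2.09, limma adjusted p = 0.0490). The other 4 did not pass, Lyz2 among them, and Mpo and Fcgr3 were near level (0.02 and -0.15). The endothelial list was higher, at 10.2 to 15.8 in deleted arrays against 3.76 to 4.01 in controls, carried by Kdr (log2 fold change 3.65), with Cdh5 and Emcn not above the limit in any. Pecam1, of the same list, was lower (log2 fold change -0.96, adjusted p = 0.0259), and Tek did not pass (0.24). The erythroid list ran from 0.198 to 0.208 in deleted arrays and from 0.202 to 0.243 in controls, with Alas2 and Klf1 not above the limit in any. The sums of the NK and myeloid lists were thus lower in deleted arrays, as Dtx1 and Notch1 were, though the markers within each list did not move as one. That of the endothelial list was higher, as Notch2 was, through Kdr alone among its 3 tested markers. The part of other cells in these results was not tested, and in bulk RNA fewer cells of a type and less RNA per cell cannot be told apart.

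For each called gene the 3 tested genes nearest in pattern were taken, by the Euclidean distance between log2 profiles over the 5 arrays after subtracting each gene's mean. For Notch2 they were Gimap3, Art5 and Pgap1 (distances 0.30, 0.30 and 0.35). For Dtx1 they were Gpr37, Rapgef3 and Zmat3 (0.22, 0.23 and 0.31). For Notch1 they were Zscan2, Nupr1l and Igsf8 (0.07, 0.10 and 0.11). With 5 arrays in 2 groups, these distances mostly reflect the size of the difference between the groups.

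**Figure D5:**
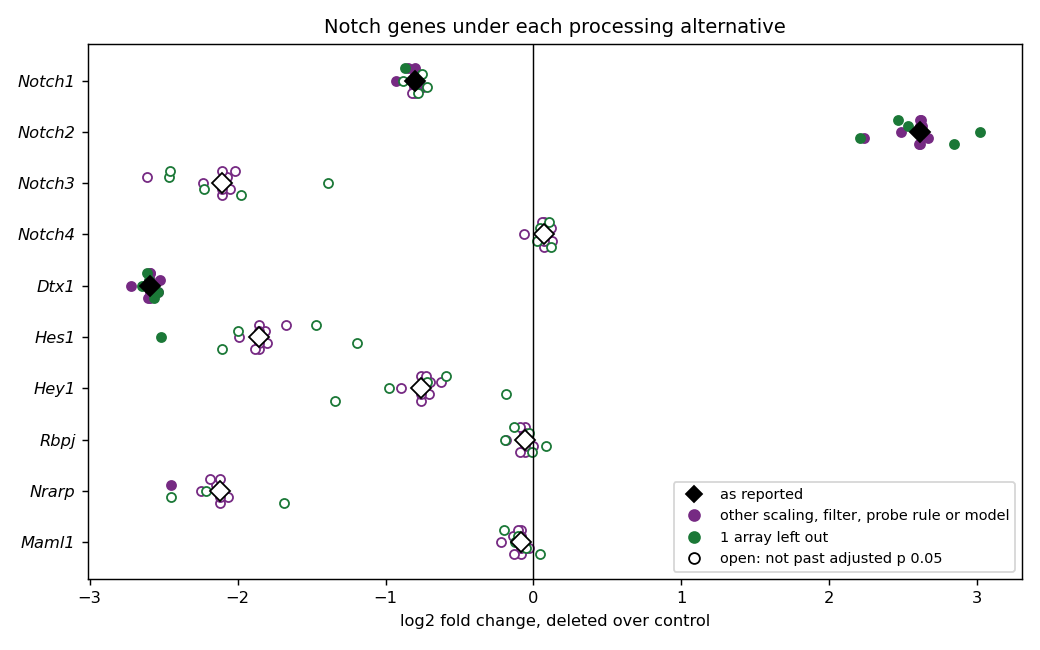
Log2 fold change, deleted over control, of each of the 10 genes as reported (diamonds) and under each processing alternative (points, green where 1 array was left out), filled where the adjusted p is under 0.05. Dtx1 and Notch2 stay past the threshold in every setting, Notch1 keeps its direction between -0.93 and -0.72 while losing the call in 5 of 15, and Hes1 moves between -2.52 and -1.20.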

How the data were processed

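The values deposited by the authors are linear Cy3 intensities, 1 for each feature of an array. The submitters' processing notes name Agilent Feature Extraction, and the labels give neither its background handling nor spot flags. Features were named from the platform annotation, and none with several symbols was named. Values were put on a log2 scale and centred on the 75th percentile of their array. A gene was represented by its feature with the highest mean, and tested if at least 2 of 5 arrays exceeded the 40th percentile. Groups, taken from the genotype in the titles, were compared two-sided by limma (version 3.58.1, R 4.3.3), whose eBayes step used trend = TRUE. P-values were adjusted by Benjamini-Hochberg over 13419 genes, or over 28007 features where a single feature is named. The fit was tested on simulated data. Alternatives changed the scaling, filter, feature rule and variance model, added a block for sex (the arrays high in Xist), or left out 1 array. Where all arrays of a group were at or below the 40th percentile, that limit gave an "at least" fold.

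The 10 genes, pathway lists, marker lists and motifs were chosen with earlier results of these data known, so no set test was run. The genes named are the 10, Ebf1, the called pathway genes, and the 3 nearest profiles of each called gene. Other genes were named after their values were seen. Listed genes without a named feature were not analysed here. The number of arrays limits the precision.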

Additional observations from a re-analysis of the deposited data

How the results depend on the processing

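Dtx1 and Notch2 kept their direction and passed under all 15 alternatives (adjusted p at most 0.0139 and 0.0250), whereas Notch1 passed in 10. The 3 calls among the 10 genes were the same under each alternative scaling. The number of changed genes was 2324, against 1483 with the Xist block and 703 to 2009 with 1 array left out. The number of changed pathway genes was 17, and ran from 8 to 18 with 1 array left out (8 without control 3 and 11 without control 6). With the Xist block it was 12, and Mfng (adjusted p = 0.0687), Maml2 (0.0533), Ccnd3 (0.0603), Asb2 (0.0597) and Tle1 (0.0872) no longer passed. The cause was not tested. The sign of 3 uncalled values near zero turned: Notch4 to -0.060 without scaling, Rbpj to 0.082 without control 3 (-0.20 to 0.082 with 1 array left out) and Maml1 to 0.047 without deleted 7 (-0.20 to 0.047). The share of calls that were higher was 49.5%, and 38.6% without scaling, where the median log2 fold change of all genes was -0.04. With the filter at the 60th percentile 6 of the 10 genes were tested. No paired analysis was possible because the groups share no replicate numbers. Without detection flags, values near the 40th percentile, such as those of Nrarp, Dll4 and Heyl in deleted arrays, are bounded only by that limit.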

Other observations

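Among the 17 called pathway genes outside the 10, 14 had a promoter entry, and in 5 of them (Lfng, Nedd4, Maml2, Hes5 and Cdkn1a) at least 1 entry held the Rbpj core TGGGAA on either strand within 250 bases before the start, where 21.6% of single windows hold it. Nedd4, Maml2 and Cdkn1a have 2 entries each and matched in the second alone, so a count per gene is not set against a share per window. The matching windows of Hes5, Nedd4, Maml2 and Cdkn1a lie inside the annotated gene span, and that of Lfng lies outside it. Of the 10 genes themselves, 8 had a promoter entry, and 1 of them, Rbpj, held the core, in windows inside its annotated span. The windows of the receptors, Dtx1, Nrarp and Maml1 did not hold it. The called pathway genes were looked up after their values were seen, and the matches are descriptions of sequence.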
